A study of Mus musculus with 12 samples.

Results

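The comparison described here set *Terc*-/- (KO) cells against wild-type (WT) cells after 15 days of differentiation from mouse embryonic stem (ES) cells, and asked which lineages and cell functions differed late in differentiation. The levels compared come from 4 of the 12 arrays of the series, 2 KO and 2 WT arrays chosen by their titles. They cover 45037 probe sets, of which 34945 name a single gene and represent 18193 genes. The other 8 arrays hold KO and WT cells at day 8 and before differentiation, 2 of each, and the 4 day 8 arrays serve below to show which differences were already present. All 12 arrays entered the fit that gave the standard errors (SE) and p-values, with 1 shared estimate of the spread. These values therefore also rest on the replicates of the other days. All cells were on a C57BL/6 background, and both genotypes went through the same differentiation without an added drug or transgene. The KO cells are described as G3/4 *Terc* knockout, with G3 and G4 naming the generation of mice bred without telomerase RNA. The day 0 arrays were labelled with cell lines, F35 and A49 for KO and N12 and N33 for WT, whereas the day 8 and day 15 arrays carry no line name. Each line is 1 derivation, so genotype and line cannot be told apart. The replicates are labelled biological, but nothing says that they came from separate differentiations. The p-values therefore measure only the spread between replicate arrays, pooled over all 12, where those of day 0 are different lines.

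*Terc* encodes the RNA template with which telomerase lengthens chromosome ends, and cells bred without it carry shorter telomeres each generation. ES cells deprived of LIF, the cytokine that holds them undifferentiated, round up into embryoid bodies, and after these are plated they form derivatives of all germ layers. Mesoderm gives rise to primitive blood, vessels, muscle and connective tissue. Visceral endoderm, the layer that lines the yolk sac, secretes serum proteins that the liver makes later in life, and ectoderm forms neural tissue and epidermis. ES cells were kept on feeder fibroblasts before differentiation, and feeder cells share the connective tissue genes described below. *Terc* itself is not represented by a single-gene probe set in the values used here, so the genotype rests on the labels.

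Array brightness was even, with median intensities of 52.9 and 52.5 in KO and 53.1 and 52 in WT at day 15. The WT replicates were less alike than the KO replicates: 54 probe sets differed by more than 1 on the log2 scale between the 2 KO arrays, against 693 between the 2 WT arrays. These differences followed gene groups. WT replicate 1 read higher than WT replicate 2 in 19 of 19 macrophage genes (median log2 difference 1.27), and WT replicate 2 read higher than WT replicate 1 in 18 of 19 yolk sac and liver genes (median 1.49) and in 19 of 21 ES cell genes. Between the KO arrays the median difference was -0.04 for macrophage genes and 0.33 for yolk sac and liver genes, as replicate 1 over replicate 2. The values of each array are therefore given for most genes, and most counts of list members that moved by more than 1.5 times without a single array are given with that array. The arrays measure mixed cultures, in which fewer cells of a type and less RNA per cell cannot be told apart.

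**Figure D1:**
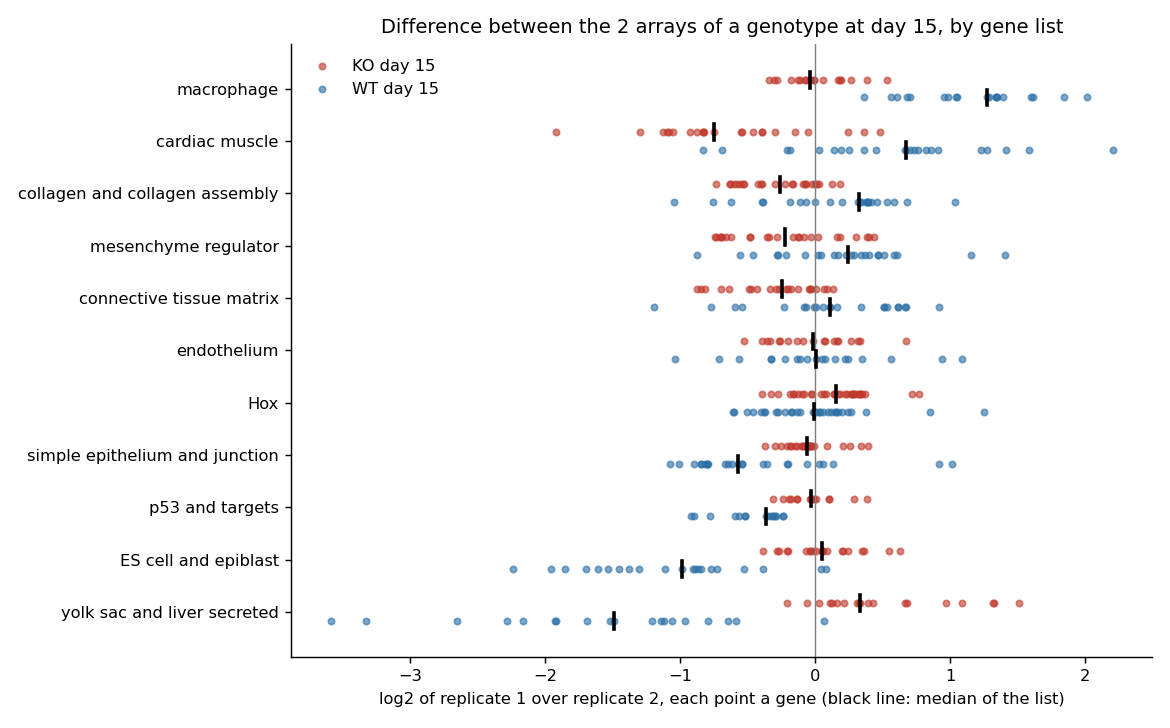
Log2 of replicate 1 over replicate 2 for each gene of 11 lists at day 15, for KO (red) and WT (blue), with a black line at the median of each list. The macrophage genes of WT lie to the right (median 1.27) and the yolk sac and liver genes of WT to the left (median -1.49), while the KO medians for both lists are -0.04 and 0.33.

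At day 15, 5807 of 45037 probe sets (12.9%) differed between KO and WT at an adjusted p of 0.05 or less in limma, 2904 (6.45%) higher and 2903 (6.45%) lower in KO. Taken by gene, with the brightest probe set standing for the gene, 3107 of 18193 genes (17.1%) were called, of which 1595 (8.77%) were higher and 1512 (8.31%) lower. The fall was the larger side among strong changes: 405 called genes were higher and 616 lower by more than 2-fold, and 80 higher and 150 lower by more than 4-fold. The KO and WT arrays did not overlap for any called gene, although the arrays of 58.9% of all genes also did not overlap. Over all genes the log2 difference had a median of 0.04. Leaving out KO replicate 1 reduced the number of called probe sets to 1720, leaving out KO replicate 2 to 3360 and leaving out WT replicate 1 to 2635, whereas 5831 were called without WT replicate 2. Of 199 named genes that were called, 97 were called without KO replicate 1, 129 without KO replicate 2, 131 without WT replicate 1 and 175 without WT replicate 2, and none changed direction. The direction of a called gene could not change in these fits, since its KO and WT arrays did not overlap, so that result adds no support. By the fold change rule of the study's methods (at least 1.8-fold between group means, with no test), 2829 probe sets (6.28%) differed, 1033 (2.29%) higher and 1796 (3.99%) lower. The counts of list members that follow are to be read against the 8.77% of all genes called higher and the 8.31% called lower. For 6148 of 18193 genes both group means lay below the highest array median of day 15. The same held for 11 of 28 neural progenitor, 10 of 27 neuronal, 8 of 17 cartilage and bone and 8 of 12 skeletal muscle genes. It also held for 7 of 12 germ cell and 7 of 15 differentiated epidermis genes.

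**Figure D2:**
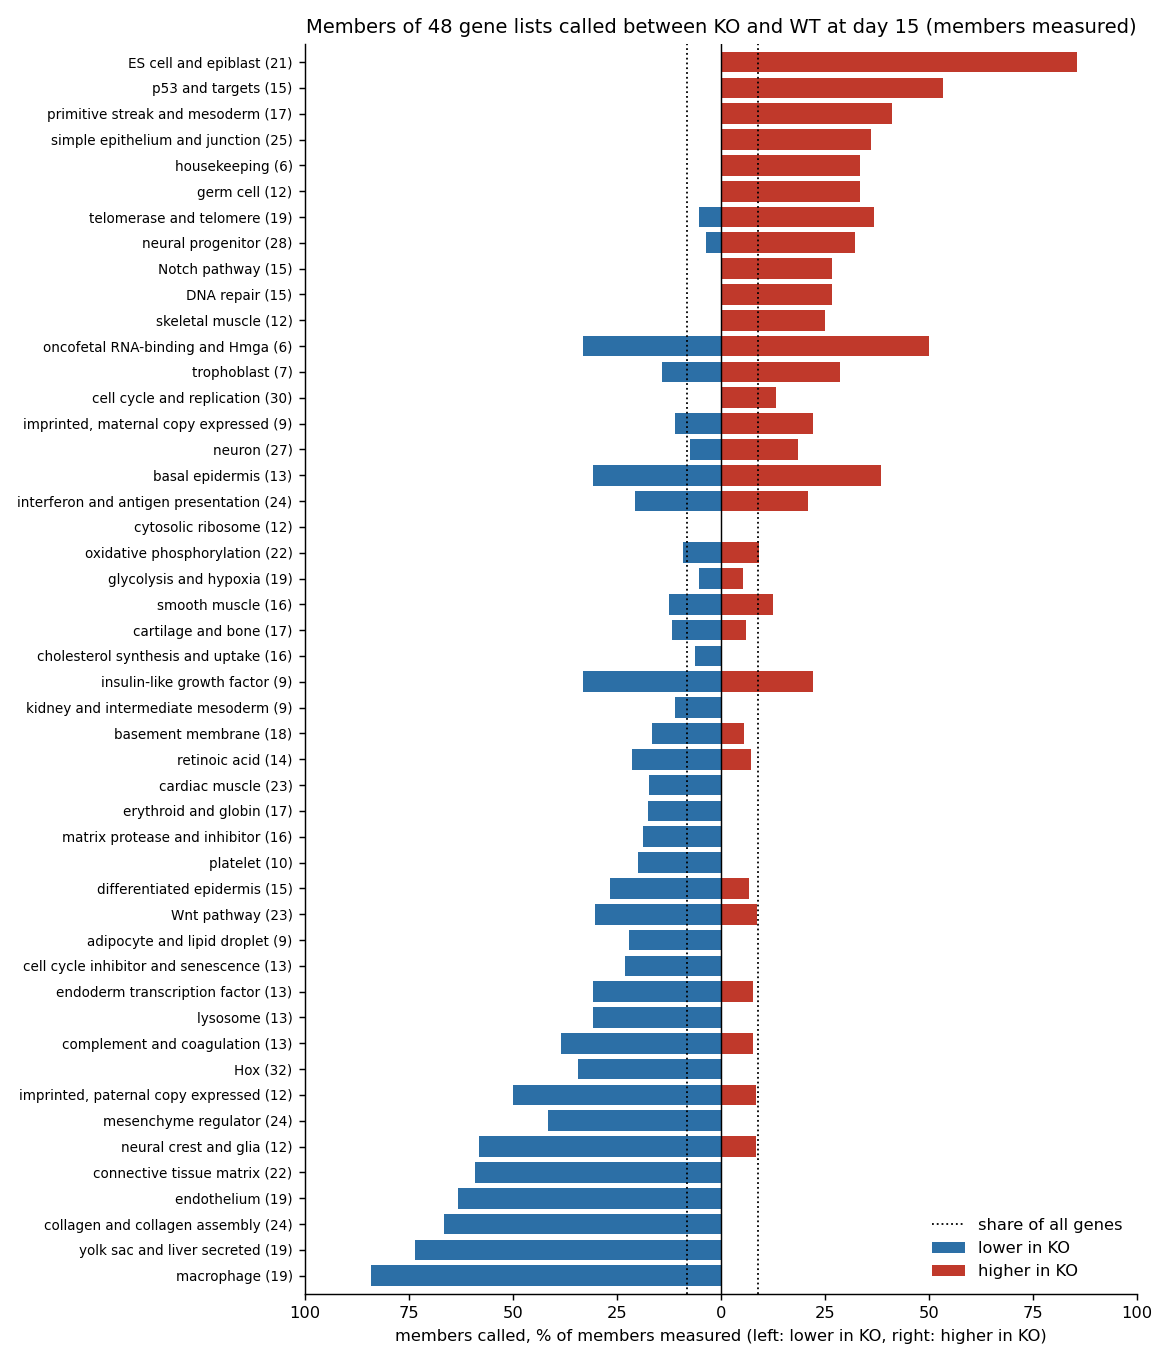
Share of the measured members of 48 gene lists that were called lower (blue, left) or higher (red, right) in KO than in WT at day 15, in percent, with dotted lines at the shares of all genes, 8.31% lower and 8.77% higher. Macrophage (16 of 19), yolk sac and liver (14 of 19), collagen (16 of 24) and endothelium (12 of 19) genes lie at the lower end and ES cell genes (18 of 21) at the upper end.

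Macrophage genes were broadly lower in the KO cultures. Of 19 macrophage genes, 16 fell and none rose, with a median log2 difference of -2.23, against 0.04 over all genes. *Tyrobp*, the signalling adaptor of myeloid receptors, had 28.6 and 27.4 in KO and 1082 and 354 in WT, a 22.1-fold lower level (log2 difference -4.47 ± 0.42 SE, adjusted p = 0.000365). *Mrc1*, the mannose receptor of tissue macrophages, had 13.4 and 16.3 in KO against 505 and 141 in WT (log2 difference -4.17 ± 0.47 SE, adjusted p = 0.000919). *Csf1r*, the receptor for the growth factor on which macrophages depend, had 336 and 426 in KO against 2462 and 1274 in WT (log2 difference -2.23 ± 0.37 SE, adjusted p = 0.00516). In each of these genes both WT arrays lay well above both KO arrays, with WT replicate 1 the highest. The C1q chains, which start the classical complement cascade, fell as a set: *C1qc* had 23.9 and 25.1 in KO and 534 and 210.0 in WT, and *C1qa* had 26.3 and 32.4 in KO and 222 and 151 in WT. *Fcer1g*, an Fc receptor subunit, was 14.8-fold lower (log2 difference -3.89 ± 0.51 SE, adjusted p = 0.0019), *Ctss*, a protease of antigen processing, 10.9-fold lower (log2 difference -3.44 ± 0.37 SE, adjusted p = 0.000566), and *Ptprc* (CD45), which marks white blood cells, 7.12-fold lower (log2 difference -2.83 ± 0.40 SE, adjusted p = 0.00231). Most of the KO values of these genes were below the array medians of 52.9 and 52.5, a range in which an array cannot separate a low level from background, so that the folds are limited by that floor. *Laptm5* had 99.4 and 112 in KO and 357 and 141 in WT and did not pass (log2 difference -1.09 ± 0.35 SE, adjusted p = 0.0743). The summed intensity of the 19 genes was 1114 and 1215 in KO against 8492 and 3670 in WT. The number of members that fell was 12 without KO replicate 1, 12 without KO replicate 2, 12 without WT replicate 1 and 18 without WT replicate 2. It was 8 when only probe sets above the median brightness were tested and 9 with the 4 day 15 arrays alone.

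The macrophage difference appeared between day 8 and day 15. None of the 19 genes was called at day 8, when the median log2 difference was 0.15, and 6 had a day 15 difference lower than the day 8 difference beyond error. *Tyrobp* had 27 and 25.1 in KO and 24.4 and 32.2 in WT at day 8, and its difference moved by -4.36 ± 0.59 (SE) on the log2 scale by day 15 (adjusted p = 0.0227). *Mrc1* had 15.5 and 17.2 in KO and 12 and 16.8 in WT at day 8, with a shift of -4.37 ± 0.66 (SE, adjusted p = 0.0342). Both genes thus read low in both genotypes at day 8, and among the arrays of days 8 and 15 only the WT arrays of day 15 were bright. *C1qa*, *C1qc*, *Ctss* and *Fcgr3*, an Fc receptor, were the other 4, with shifts of -2.55, -4.40, -3.35 and -2.69.

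Embryonic globins, the oxygen carriers of primitive yolk sac red cells, read below the array medians in KO. *Hbb-bh1* had 29.7 and 22.9 in KO against 874 and 909.7 in WT (log2 difference -5.10 ± 0.65 SE, adjusted p = 0.00176). *Hbb-y* had 26.5 and 22.5 in KO against 666 and 314 in WT (log2 difference -4.23 ± 0.99 SE, adjusted p = 0.0251). *Hba-x*, the embryonic alpha-type chain, had 42.7 and 44 in KO against 712 and 422 in WT (log2 difference -3.66 ± 0.81 SE, adjusted p = 0.0195). The WT arrays of all 3 genes exceeded the KO arrays by far, although the KO values lie in the range that cannot be told from background, which limits the size of each difference. At day 8 the WT replicates were split, with 26.9 and 423 for *Hbb-y* in WT and 16.9 and 23.6 in KO. These 3 were the only members called of 17 erythroid genes, 11 of which had both group means below the highest array median of day 15. *Hba-a1*, an adult-type alpha chain, had 21.4 and 16.7 in KO and 18.1 and 17.2 in WT, and *Gata1*, the erythroid regulator, had 42.6 and 38.1 in KO and 35.5 and 33.9 in WT. The 3 globins were not all called with 1 array left out: 1 erythroid gene was called without KO replicate 1, without KO replicate 2 or without WT replicate 1, and 4 without WT replicate 2. Of 10 platelet genes 2 fell, and 1 without KO replicate 1 or without WT replicate 1. *Pf4*, a platelet chemokine also made by some macrophages, had 37.2 and 36.1 in KO against 1318 and 338 in WT (log2 difference -4.19 ± 0.55 SE, adjusted p = 0.00198). *Plek*, a protein kinase C substrate of platelets and leukocytes, had 14.6 and 17.1 in KO against 154 and 53.4 in WT (log2 difference -2.52 ± 0.52 SE, adjusted p = 0.0142).

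Promoter sequence is shown for 2 globins and 2 macrophage genes that fell and hold letters of interest to blood cell regulators. Each is the 150 bases up to the base before the annotated start, from RefSeq on GRCm38.p6 and read 5′ to 3′ on the gene's strand. In the globin promoters the capitals mark CACCC, a core that Krüppel-like factors recognise in globin genes, the box CCAAT, and ATAAA, which lies where a TATA box does. In the macrophage promoters they mark GAGGAA, a core that PU.1, the regulator of myeloid genes, recognises, or the same letters on the other strand. *Hbb-y* lies at chr7:103853208-103853357 on the minus strand, *Hba-x* at chr11:32276450-32276599 on the plus strand, *Mrc1* at chr2:14229264-14229413 on the plus strand and *C1qb* at chr4:136886201-136886350 on the minus strand.
Hbb-y: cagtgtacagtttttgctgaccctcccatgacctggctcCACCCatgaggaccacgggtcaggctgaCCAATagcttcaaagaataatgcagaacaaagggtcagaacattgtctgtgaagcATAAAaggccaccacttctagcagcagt
Hba-x: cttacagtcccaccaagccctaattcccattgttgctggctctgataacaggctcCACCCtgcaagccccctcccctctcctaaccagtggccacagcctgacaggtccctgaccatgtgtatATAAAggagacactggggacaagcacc
Mrc1: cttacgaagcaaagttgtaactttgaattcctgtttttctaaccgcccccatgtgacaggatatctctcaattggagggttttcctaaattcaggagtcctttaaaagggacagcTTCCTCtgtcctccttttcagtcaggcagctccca
C1qb: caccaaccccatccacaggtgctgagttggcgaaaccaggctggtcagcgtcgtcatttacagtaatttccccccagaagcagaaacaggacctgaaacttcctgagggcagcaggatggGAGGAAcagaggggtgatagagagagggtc
Searched on both strands of the same 150 base window, CACCC was found in 37.4% of 32851 promoters and in both globins. ATAAA was found in 24.1% of all promoters and also in both. CCAAT was found in 24.5% of all promoters and in *Hbb-y* of the pair. GAGGAA was found in 14.5% of all promoters and in 4 of the 11 macrophage genes that fell and had an entry (*Aif1*, *C1qb*, *Fcgr3* and *Mrc1*). Of the other motifs searched, AGATAA, a form that GATA factors recognise, was found in 5.65% of all promoters, in 1 of the 11 macrophage genes (*Ptprc*) and in neither globin. Another form, TGATAA, was not searched, and the *Hba-x* sequence shown holds these letters unmarked. The longer CACCC form CCACACCC (2.18% of all promoters) and the longer PU.1 form GAGGAAGT (1.63%) were found in none of the 11 genes and in neither globin. The motifs were searched one at a time, no marked motifs overlap, and a match is a description of the letters only.

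Vessel genes were lower in KO as well. Of 19 endothelial genes 12 fell and none rose, with a median log2 difference of -0.96. *Kdr*, the main receptor for vascular endothelial growth factor, had 116 and 148 in KO against 978 and 460.3 in WT (log2 difference -2.35 ± 0.36 SE, adjusted p = 0.00299). *Tek*, the angiopoietin receptor, had 67 and 80.6 in KO against 536 and 279.8 in WT (log2 difference -2.40 ± 0.44 SE, adjusted p = 0.00807). *Cdh5*, the cadherin of endothelial junctions, had 49 and 39 in KO against 108 and 136 in WT (log2 difference -1.47 ± 0.17 SE, adjusted p = 0.000405). The WT arrays were higher without overlap in all 3, and for *Cdh5* WT replicate 2 was the higher of the pair, unlike in the macrophage genes. *Lyve1*, a hyaluronan receptor of lymphatic and early endothelium and of some macrophages, was the only member whose difference grew between the days beyond error (-1.43 ± 0.26 SE, adjusted p = 0.0429). *Cldn5*, a junction protein, *Sox18*, a vascular regulator, and *Emcn* also fell, at log2 differences of -1.34, -1.31 and -1.15. *Flt1*, another receptor for the same factor, had 659 and 597 in KO and 247 and 506 in WT and did not pass (log2 difference 0.83 ± 0.27 SE, adjusted p = 0.0764). *Vegfa*, the growth factor itself, fell to 183 and 200.5 in KO, against 263 and 307 in WT (log2 difference -0.57 ± 0.14 SE, adjusted p = 0.0191). With each array left out in turn, 8 to 11 endothelial genes were called lower.

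**Figure D3:**
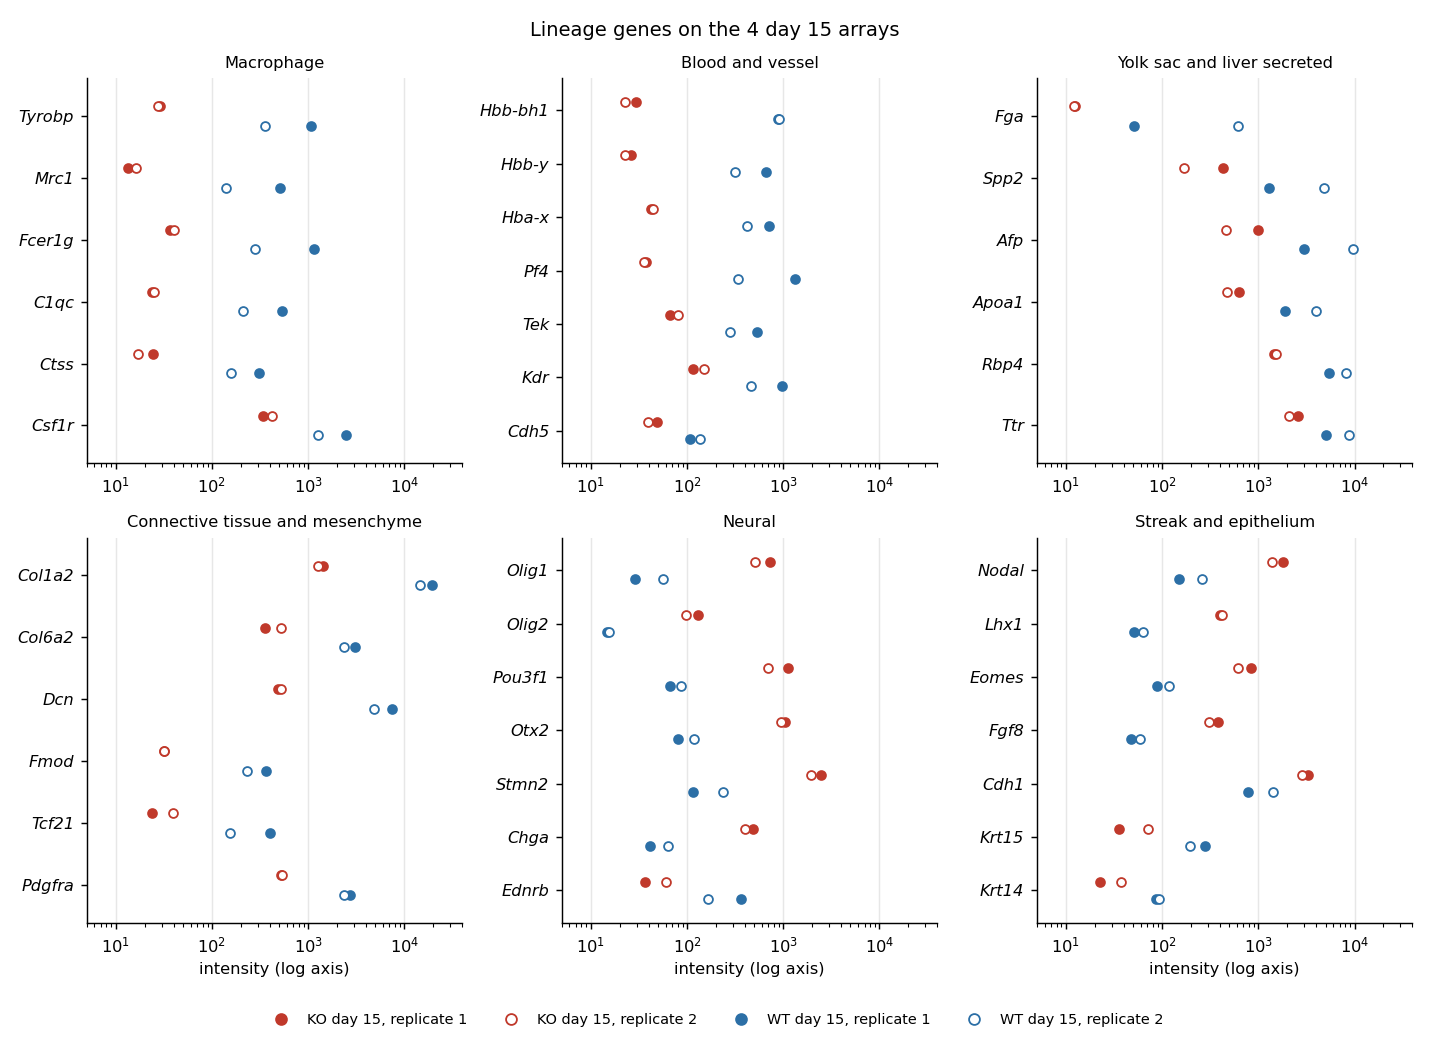
Intensity of 39 lineage genes on the 4 day 15 arrays (log axis), with KO in red above WT in blue for each gene, filled points for replicate 1 and open points for replicate 2. *Tyrobp* read 28.6 and 27.4 in KO against 1082 and 354 in WT, and *Col1a2* 1424 and 1254 against 19252 and 14683. The streak genes and the neural genes other than *Ednrb* lie the other way, with *Nodal* at 1791 and 1383 in KO against 151 and 257 in WT. *Krt15* and *Krt14* are lower in KO.

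Serum proteins of visceral endoderm and liver were lower in KO, with a wide spread between the WT arrays. Of 19 such genes 14 fell and none rose (median log2 difference -2.08), and the other 5 had values below 0 too. *Afp*, the fetal counterpart of albumin, had 986 and 465 in KO against 2990 and 9667 in WT (log2 difference -2.99 ± 0.60 SE, adjusted p = 0.0124). *Apoa1*, the main protein of high-density lipoprotein, had 629 and 468 in KO against 1894 and 3954 in WT (log2 difference -2.33 ± 0.31 SE, adjusted p = 0.00141). *Rbp4*, the retinol carrier, had 1458 and 1517 in KO against 5400 and 8108 in WT (log2 difference -2.15 ± 0.47 SE, adjusted p = 0.0185). In each, both KO arrays lay below both WT arrays, and WT replicate 2 was the higher WT array. The fibrinogen chains *Fga*, *Fgb* and *Fgg*, which form clots, differed most between the WT arrays, as *Fga* had 12.3 and 12 in KO against 51 and 613 in WT (log2 difference -3.86 ± 0.87 SE, adjusted p = 0.0211). *Spp2*, a secreted phosphoprotein, was 9.24-fold lower (log2 difference -3.21 ± 0.66 SE, adjusted p = 0.0145), and *Ttr*, the thyroid hormone carrier, 2.89-fold lower (log2 difference -1.53 ± 0.39 SE, adjusted p = 0.0339). *Cubn*, an uptake receptor of the yolk sac, had 426 and 149.5 in KO and 346 and 1550 in WT, groups that overlap, and did not pass (log2 difference -1.54 ± 1.01 SE, adjusted p = 0.393). The count depends on single arrays: it was 5 without KO replicate 1, 1 without KO replicate 2, 17 without WT replicate 1 and 7 without WT replicate 2. It was 3 when only the 8 arrays of days 8 and 15 entered the fit and 2 with the 4 day 15 arrays alone. None of the 19 was called at day 8, although the median log2 difference was already -1.48.

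Endoderm regulators did not move as 1 group. Of 13, 4 fell and 1 rose, and the falls numbered 2 without KO replicate 1 and 1 without KO replicate 2, with 3 rises without WT replicate 2. *Gata6*, which drives extraembryonic endoderm and is also expressed in heart mesoderm, had 425 and 579.5 in KO against 2592 and 1746 in WT (log2 difference -2.10 ± 0.31 SE, adjusted p = 0.00231). *Gata4*, its close relative, had 353 and 318 in KO against 473 and 559 in WT (log2 difference -0.62 ± 0.12 SE, adjusted p = 0.00807). *Nr5a2*, a nuclear receptor of endoderm and of ES cells, rose to 122 and 129.6 in KO, against 61.4 and 74.4 in WT (log2 difference 0.90 ± 0.15 SE, adjusted p = 0.00351). The pioneer factors of definitive endoderm had no call: *Foxa2* had 719 and 758 in KO and 269.5 and 762 in WT (log2 difference 0.70 ± 0.41 SE, adjusted p = 0.32). *Sox17* had 1043 and 931 in KO and 280.4 and 1114 in WT (log2 difference 0.82 ± 0.61 SE, adjusted p = 0.458). For both, WT replicate 2 was at or above the KO level and WT replicate 1 below it.

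Connective tissue was another large group of genes with lower levels in KO. Of 24 genes for collagens and collagen assembly 16 fell and none rose (median log2 difference -1.44). *Col1a2*, a chain of type I collagen, had 1424 and 1254 in KO against 19252 and 14683 in WT (log2 difference -3.65 ± 0.51 SE, adjusted p = 0.00248). *Col5a2*, a fibril-initiating chain, had 329 and 404 in KO against 5523 and 3676 in WT (log2 difference -3.63 ± 0.54 SE, adjusted p = 0.00327). *Col6a2*, a microfibril chain, had 353 and 527 in KO against 3091 and 2383 in WT (log2 difference -2.65 ± 0.28 SE, adjusted p = 0.000499), and its difference was absent at day 8 (185 and 156 in KO and 133 and 166 in WT). All 3 chains were separated between the genotypes at day 15 by more than the spread within either. Over the 24 genes the median log2 difference was already -0.7 at day 8, although none was called. On that day WT replicate 2 read above WT replicate 1 in all 24 (median log2 difference 1.22). *Col6a2* was the only member of the list whose difference grew between the days beyond error. *Lox*, which cross-links collagen and elastin, had 251 and 293 in KO against 1081 and 1411 in WT (log2 difference -2.19 ± 0.32 SE, adjusted p = 0.00223), and the prolyl hydroxylase genes *P4ha1*, *P4ha2* and *P4ha3* fell too, at log2 differences of -1.20, -1.33 and -1.12. *Col3a1*, the abundant type III chain, had 4590 and 7616 in KO and 18771 and 14372 in WT and did not pass (log2 difference -1.47 ± 0.62 SE, adjusted p = 0.167), and neither did *Sparc*, a collagen-binding glycoprotein, at 6305 and 6657 in KO and 9068 and 10318 in WT. The count was 9 without KO replicate 1, 10 without KO replicate 2, 11 without WT replicate 1 and 15 without WT replicate 2.

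Other matrix genes behaved alike. Of 22 connective tissue matrix genes 13 fell and none rose (median log2 difference -1.23). The small leucine-rich proteoglycans, which coat collagen fibrils, were among the strongest: *Dcn* had 482 and 527 in KO against 7385 and 4822 in WT (log2 difference -3.57 ± 0.62 SE, adjusted p = 0.0067). *Fmod* had 31.9 and 31.7 in KO against 364 and 229 in WT (log2 difference -3.18 ± 0.18 SE, adjusted p = 1.9e-05). *Fmod* was dim in both genotypes at day 8, with 29.7 and 26.2 in KO and 25.4 and 27.2 in WT, and its shift between the days was -3.27 ± 0.26 (SE, adjusted p = 0.000798). Over the 22 genes the median log2 difference at day 8 was -0.39, and 1 was called lower. *Lum* had 553 and 976 in KO against 7503 and 4914 in WT (log2 difference -3.05 ± 0.84 SE, adjusted p = 0.0458) and *Ogn* had 65 and 119 in KO against 751 and 794 in WT (log2 difference -3.14 ± 0.63 SE, adjusted p = 0.0131). Elastic fibre genes fell too, among them *Fbln5* (-2.15), *Mfap4* (-2.80), *Fbn2* (-1.93) and *Eln* (-0.69). *Postn*, which binds collagen in growing tissue, had 1388 and 2488 in KO and 11889 and 8330 in WT and did not pass (log2 difference -2.42 ± 0.80 SE, adjusted p = 0.086). *Ccn1* and *Ccn2*, matricellular proteins that respond to strain, showed no call, with *Ccn2* at 4665 and 5420 in KO and 2872 and 6576 in WT. The count of 13 was 8 without KO replicate 1.

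Regulators and receptors of mesenchyme fell in 10 of 24 cases, with none higher. *Pdgfra*, the growth factor receptor that marks early mesenchyme, had 521 and 533 in KO against 2731 and 2335 in WT (log2 difference -2.26 ± 0.21 SE, adjusted p = 0.000166). *Tcf21*, a regulator of mesenchyme around organs, had 23.6 and 39.5 in KO against 406 and 153 in WT (log2 difference -3.03 ± 0.53 SE, adjusted p = 0.0068). *Cdh11*, the cadherin of mesenchymal cells, had 311 and 502 in KO against 2636 and 1850 in WT (log2 difference -2.48 ± 0.34 SE, adjusted p = 0.0019). These differences were in part older than day 15, since 5 mesenchyme genes, *Pdgfra*, *Pdgfrb*, *Cdh11*, *Zeb2* and *Twist1*, were called lower at day 8. *Snai2* and *Zeb1*, which repress E-cadherin, fell (2.83-fold and 2.52-fold), whereas *Vim*, the intermediate filament of mesenchyme, had 3081 and 4303 in KO and 5981 and 4888 in WT and did not pass (log2 difference -0.57 ± 0.32 SE, adjusted p = 0.3). The count was 4 without KO replicate 1 and 5 without WT replicate 1. Of 16 matrix proteases and inhibitors 3 fell, namely *Adamts1*, *Mmp2* and *Mmp23*, at 4.48-fold, 1.97-fold and 2-fold, but 0 without KO replicate 1 and 1 without WT replicate 1.

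Basement membrane and muscle genes were mostly not called. *Col4a6* fell to 72.1 and 86.4 in KO, against 525 and 283 in WT (log2 difference -2.29 ± 0.29 SE, adjusted p = 0.000906), whereas *Col4a1*, a chain of the common type IV collagen, had 5335 and 5096 in KO and 4397 and 9451 in WT (log2 difference -0.31 ± 0.44 SE, adjusted p = 0.736). *Lama5*, a laminin chain of epithelia, rose to 1067 and 962 in KO, against 539 and 671 in WT (log2 difference 0.75 ± 0.13 SE, adjusted p = 0.00361). Of 18 such genes 3 fell and 1 rose, and none rose without KO replicate 1. Smooth muscle genes had 2 calls each way of 16. None of these was higher without KO replicate 1, KO replicate 2 or WT replicate 1, and 0 were lower without KO replicate 1 and 1 without any other array. *Acta2*, the smooth muscle actin, had 8367 and 10121 in KO and 9935 and 10049 in WT (log2 difference -0.12 ± 0.27 SE, adjusted p = 0.843).

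Of 23 cardiac genes 4 fell and none rose, and 3 of the 4 are transcription factors. *Hand2*, a factor of heart and limb, had 314 and 597 in KO against 2756 and 1731 in WT (log2 difference -2.33 ± 0.41 SE, adjusted p = 0.0067). *Tbx20* had 166 and 218 in KO against 669 and 584 in WT (log2 difference -1.72 ± 0.31 SE, adjusted p = 0.00561). *Mef2c*, a muscle regulator, and *Tnni1*, a troponin chain of slow and embryonic muscle, fell (-1.39 and -1.83 on the log2 scale). The contractile genes of heart differed within each genotype more than between them: *Myl2* had 190.5 and 719.6 in KO and 542 and 117 in WT, *Myh6* 191 and 469 in KO and 440.5 and 147 in WT, and *Actc1* 642 and 1361 in KO and 1537 and 637 in WT. KO replicate 2 and WT replicate 1 were the high arrays for all 3. No cardiac gene was called lower without KO replicate 1, and 2 were without WT replicate 1. Of 12 skeletal muscle genes 3 rose, with *Acta1*, the skeletal actin, at 824 and 882 in KO against 134 and 204 in WT (log2 difference 2.37 ± 0.34 SE, adjusted p = 0.00222). Cartilage and bone genes had 2 falls and 1 rise of 17 (2 rises without WT replicate 2). *Col9a1* and *Col9a2* of cartilage fell (-1.91 and -1.78 on the log2 scale), and *Matn1* rose to 51.3 and 51.6 in KO, against 22.4 and 23.7 in WT, while *Col2a1*, the main cartilage collagen, had 317 and 445 in KO and 249.9 and 244 in WT and did not pass (log2 difference 0.61 ± 0.20 SE, adjusted p = 0.07).

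A number of genes of neural fate were higher in KO. Of 28 neural progenitor genes 9 rose and 1 fell. *Olig1*, a factor of ventral neural progenitors, had 726 and 515 in KO against 28.8 and 55.9 in WT (log2 difference 3.93 ± 0.35 SE, adjusted p = 0.000231). Its relative *Olig2* had 129 and 97.8 in KO against 14.8 and 15.6 in WT (log2 difference 2.89 ± 0.25 SE, adjusted p = 0.000132). *Otx2*, of the anterior epiblast and forebrain, had 1037 and 959 in KO against 81.1 and 118 in WT (log2 difference 3.35 ± 0.39 SE, adjusted p = 0.000932). *Pou3f1*, also shared by primed epiblast and neural progenitors, had 1115 and 688 in KO against 66.8 and 86.7 in WT (log2 difference 3.53 ± 0.27 SE, adjusted p = 9.48e-05). The KO arrays exceeded both WT arrays by several-fold in all of these. *Zic2* and *Zic5*, zinc finger factors of the neural plate and epiblast, rose by 2.38 and 2.32, whereas general neural markers moved little: *Sox1* rose to 62.6 and 54.9 in KO, against 45.5 and 43.8 in WT, and *Nes*, a filament of progenitors, had 519.6 and 502 in KO and 422 and 333 in WT (log2 difference 0.45 ± 0.14 SE, adjusted p = 0.0649). *Lhx2* fell (log2 difference -0.76 ± 0.18 SE, adjusted p = 0.0196) but was not called without KO replicate 1 or without WT replicate 1. In each of the 4 fits with 1 array left out, 6 of the 28 were called higher.

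Of 27 neuronal genes 5 rose and 2 fell. *Stmn2*, a microtubule regulator of growing axons, had 2469 and 1950 in KO against 115 and 235 in WT (log2 difference 3.74 ± 0.37 SE, adjusted p = 0.000566). *Chga*, a granule protein of neuroendocrine cells, had 482 and 402 in KO against 41.1 and 63.9 in WT (log2 difference 3.10 ± 0.30 SE, adjusted p = 0.000281). Both were already called higher at day 8, at log2 differences of 1.98 and 2.20. *Uchl1*, *Tubb3* and *Crmp1* rose by 1.26, 1.15 and 1.11 on the log2 scale. *Ncam1*, an adhesion molecule also made by mesoderm, fell to 597 and 724 in KO, against 2418 and 1577 in WT (log2 difference -1.57 ± 0.38 SE, adjusted p = 0.0254), and *Dcx*, of migrating neurons, fell to 18.4 and 22.5 in KO, against 35.1 and 43 in WT (log2 difference -0.93 ± 0.14 SE, adjusted p = 0.00204). *Rab3a*, a protein of synaptic vesicles, had 699 and 576 in KO and 783 and 658 in WT and did not pass (log2 difference -0.18 ± 0.16 SE, adjusted p = 0.554). The 2 falls were 1 without KO replicate 1, KO replicate 2 or WT replicate 1. Neural crest and glial genes mostly fell, 7 of 12, with 1 higher. *Ednrb*, the endothelin receptor of migrating crest, had 36.4 and 61 in KO against 364 and 164 in WT (log2 difference -2.37 ± 0.50 SE, adjusted p = 0.0158), and *Tfap2a* and *Tfap2b*, factors of crest and surface ectoderm, fell (-0.60 and -0.96 on the log2 scale). *Erbb3*, the neuregulin receptor, rose to 562 and 488 in KO, against 233 and 296 in WT (log2 difference 1.00 ± 0.15 SE, adjusted p = 0.00207). The count of 7 was 0 without KO replicate 1, 2 without KO replicate 2, 1 without WT replicate 1 and 4 without WT replicate 2, so it rests on all 4 arrays.

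Genes of the early embryo remained at high intensity in KO at day 15. Of 21 ES cell and epiblast genes 18 rose and none fell (median log2 difference 2.39), for example *Fgf5*, a marker of primed epiblast, at 1269 and 867 in KO against 42.6 and 41.3 in WT (log2 difference 4.64 ± 0.57 SE, adjusted p = 0.00147), the WT values lying below the array medians. *Pou5f1*, the core ES cell factor, had 2259 and 1909 in KO against 108 and 281 in WT (log2 difference 3.58 ± 0.39 SE, adjusted p = 0.000895). The summed intensity of the list was 30326 and 27825 in KO against 4521 and 11181 in WT. Primitive streak genes rose in 7 of 17 cases, none lower. *Nodal*, the ligand that patterns the streak, had 1791 and 1383 in KO against 151 and 257 in WT (log2 difference 3.00 ± 0.28 SE, adjusted p = 0.000281). *Eomes*, a factor of streak and endoderm, had 848 and 609 in KO against 89.2 and 118 in WT (log2 difference 2.81 ± 0.36 SE, adjusted p = 0.00136). *Lhx1*, of the organiser, had 397 and 422 in KO against 50.8 and 63.5 in WT (log2 difference 2.85 ± 0.41 SE, adjusted p = 0.00248). The other 4 were *Fgf8*, *Foxh1*, *Gsc* and *Sp5*, at log2 differences of 2.69, 2.15, 1.84 and 1.20. The streak count was 4 without KO replicate 1. *Lefty1* and *Cer1*, secreted inhibitors of Nodal signalling chosen after their values were seen, were also higher. *Lefty1* had 748 and 711 in KO against 119 and 154 in WT (log2 difference 2.43 ± 0.17 SE, adjusted p = 4.11e-05), and *Cer1* had 272 and 176 in KO against 30.6 and 31.6 in WT (log2 difference 2.82 ± 0.21 SE, adjusted p = 6.24e-05).

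Of 12 germ cell genes 4 rose, all from low levels, with *Ddx4*, the germline helicase, at 42.5 and 42.8 in KO against 7.74 and 15.3 in WT (log2 difference 1.97 ± 0.25 SE, adjusted p = 0.000789). The germ cell count was 2 without WT replicate 1 and 8 without WT replicate 2. Among 6 oncofetal genes 3 rose and 2 fell, but without KO replicate 1 none did, without KO replicate 2 there was 1 each way, and without WT replicate 1 there was 1 rise and no fall. *Lin28a*, which blocks let-7 maturation, had 1760 and 1453 in KO against 353 and 854 in WT (log2 difference 1.54 ± 0.38 SE, adjusted p = 0.0293), whereas *Hmga2*, a chromatin protein of growing mesenchyme, had 1659 and 2111 in KO against 3257 and 2738 in WT (log2 difference -0.67 ± 0.18 SE, adjusted p = 0.0325). Trophoblast genes had 2 rises and 1 fall of 7, led by *Ascl2* at 112 and 97.1 in KO against 37.9 and 63.9 in WT (log2 difference 1.09 ± 0.25 SE, adjusted p = 0.0175), and none rose without KO replicate 1, KO replicate 2 or WT replicate 1.

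Epidermal genes, the lineage the study set out to examine, moved in both directions. Of 13 basal epidermis genes 4 fell and 5 rose, and of 15 genes of differentiated epidermis 4 fell and 1 rose (median log2 difference 0.02). Without KO replicate 1 the rises numbered 3 and 0 and the falls 3 and 2. Without KO replicate 2 there were 3 basal rises, and without WT replicate 1 there were no differentiated rises and 2 differentiated falls. Among the keratins that fell, *Krt15* had 35.7 and 71.6 in KO against 278 and 197 in WT (log2 difference -2.21 ± 0.27 SE, adjusted p = 0.000736). *Krt14* had 22.4 and 37.2 in KO against 87.2 and 92.8 in WT (log2 difference -1.64 ± 0.26 SE, adjusted p = 0.00255). *Krt5*, its partner, had 57.7 and 60.2 in KO against 166 and 139.7 in WT (log2 difference -1.37 ± 0.15 SE, adjusted p = 0.000346). All values of *Krt14* were below 100, and WT exceeded KO on both arrays. *Krt4*, *Krt13* and *Krt6a* of stratified epithelia and *Krtdap*, a differentiation-associated protein, fell too (-1.16, -1.01, -0.69 and -1.02 on the log2 scale), while *Lor*, of the cornified layer, rose by 0.51. The keratins *Krt1*, *Krt10* and *Krt17* did not pass, at log2 differences of -0.24, -0.17 and -0.45 (adjusted p = 0.315, 0.478 and 0.0832). *Trp63*, the regulator of stratified epithelium, had 19 and 15.4 in KO and 16.5 and 16.6 in WT, below the array medians in all 4 arrays (log2 difference 0.05 ± 0.14 SE, adjusted p = 0.881). Of the 5 basal genes that rose, *Sfn* had 396 and 301 in KO against 77.2 and 105 in WT (log2 difference 1.94 ± 0.19 SE, adjusted p = 0.000197). *Perp*, a desmosome protein and p53 target, had 1566 and 1639 in KO against 536 and 733 in WT (log2 difference 1.35 ± 0.29 SE, adjusted p = 0.013), and *Itga6*, *Dst* and *Lamb3* rose by 0.89, 0.68 and 0.64. At day 8 *Krt15*, *Krt5*, *Krt4* and *Krtdap* did not pass, and for these 4 the shift between days did, at -2.29, -1.58, -1.17 and -1.54.

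Genes of simple epithelium leaned to KO. Of 25, 9 rose and none fell (median log2 difference 0.57). *Cdh1*, E-cadherin, had 3281 and 2845 in KO against 772 and 1435 in WT (log2 difference 1.54 ± 0.24 SE, adjusted p = 0.0032). *Epcam*, an adhesion molecule of epithelia and ES cells, had 2052 and 2109 in KO against 757 and 1332 in WT (log2 difference 1.05 ± 0.22 SE, adjusted p = 0.0128). *Cldn4*, of tight junctions, had 1011 and 1149 in KO against 351 and 510.5 in WT (log2 difference 1.35 ± 0.33 SE, adjusted p = 0.0276). The keratins *Krt8* and *Krt18*, the brightest members, did not pass, with *Krt8* at 12062 and 12113 in KO and 5750 and 8809 in WT (log2 difference 0.76 ± 0.44 SE, adjusted p = 0.318). WT replicate 1 was the lowest array in each of these genes. The count was 2 without KO replicate 1, 1 without KO replicate 2, 4 without WT replicate 1 and 12 without WT replicate 2.

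Among signalling genes, members of the Wnt pathway list, which holds ligands, secreted regulators, receptors and effectors, fell more often than they rose, 7 against 2 of 23. *Sfrp2*, a secreted Wnt-binding protein, had 149 and 203 in KO against 963 and 748 in WT (log2 difference -2.29 ± 0.18 SE, adjusted p = 6.97e-05). *Dkk2*, which binds the Wnt co-receptor, had 67 and 91.9 in KO against 742 and 535 in WT (log2 difference -3.00 ± 0.58 SE, adjusted p = 0.0106). *Sfrp1* was higher in KO at day 8 (1.22 on the log2 scale, adjusted p = 0.0419) and lower at day 15 (log2 difference -0.87 ± 0.24 SE, adjusted p = 0.0384), and the shift of -2.09 ± 0.34 (SE) passed (adjusted p = 0.0324). *Lef1*, a nuclear effector, and *Lgr5*, a receptor for R-spondins, rose by 0.51 and 0.92. The Wnt count of 7 was 2 without KO replicate 1, 4 without KO replicate 2 and 3 without WT replicate 1, and the 2 rises were 0 without KO replicate 1 or without WT replicate 1 and 1 without KO replicate 2. In retinoic acid signalling, *Aldh1a1* and *Aldh1a2*, which make retinoic acid, fell (-1.71 and -1.19 on the log2 scale), and *Rarb*, a receptor that retinoic acid itself induces, had 37.1 and 61.4 in KO against 264 and 165 in WT (log2 difference -2.13 ± 0.31 SE, adjusted p = 0.00198). *Cyp26a1*, which breaks retinoic acid down, had 1690 and 1571 in KO against 206 and 425 in WT (log2 difference 2.46 ± 0.37 SE, adjusted p = 0.00291). These 3 falls and 1 rise were the calls among 14 genes. The synthesis enzymes *Aldh1a3* and *Rdh10* and the breakdown enzyme *Cyp26b1* did not pass, at log2 differences of 0.26, 0.68 and -0.16 (adjusted p = 0.261, 0.303 and 0.506).

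In the insulin-like growth factor group 3 genes fell and 2 rose of 9, with 1 rise when any array was left out. *Igf1* had 52.2 and 72.5 in KO against 450.0 and 317 in WT (log2 difference -2.62 ± 0.29 SE, adjusted p = 0.000504). *Igfbp4*, a secreted binding protein, had 2973 and 3751 in KO against 9308 and 7503 in WT (log2 difference -1.32 ± 0.16 SE, adjusted p = 0.000554). *Irs4*, an insulin receptor substrate, had 994 and 1196 in KO against 99.9 and 139.9 in WT (log2 difference 3.21 ± 0.34 SE, adjusted p = 0.000518). The rise of *Irs4* was already called at day 8 (2.56). Of 15 Notch genes 4 rose and none fell, namely *Notch3*, *Lfng*, *Hes1* and *Jag2*, with *Notch3* at 1565 and 1467 in KO against 886 and 814 in WT (log2 difference 0.84 ± 0.16 SE, adjusted p = 0.00575). None of the Notch genes was called higher without KO replicate 1, and 2 were without KO replicate 2 or without WT replicate 1.

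Hox genes, which set position along the body axis, fell in 11 of 32 cases and rose in none (median log2 difference -0.45). For 16 of the 32 both group means lay below the highest array median of day 15, in the range that cannot be told from background. *Hoxc8* had 76.6 and 81.1 in KO against 233 and 236 in WT (log2 difference -1.57 ± 0.42 SE, adjusted p = 0.0401). *Hoxb2* had 112 and 122 in KO against 386 and 214 in WT (log2 difference -1.30 ± 0.25 SE, adjusted p = 0.00662). Called members came from all 4 clusters. The count was 1 without KO replicate 1, 5 without KO replicate 2, 5 without WT replicate 1 and 7 without WT replicate 2. Imprinted genes, of which 1 parental copy is silent, fell in 6 of 12 paternally expressed and in 1 of 9 maternally expressed cases, with 1 and 2 rises. *Mest*, a paternally expressed hydrolase gene of mesoderm, had 128 and 87 in KO against 2919 and 2721 in WT (26.7-fold lower, log2 difference -4.74 ± 0.49 SE, adjusted p = 0.000727) and was already low at day 8, with 161 and 254 in KO against 2167 and 2929 in WT (-3.64, adjusted p = 0.0153). *Dlk1* had 3433 and 3998 in KO against 17358 and 12843 in WT (log2 difference -2.01 ± 0.48 SE, adjusted p = 0.0263). Of the maternally expressed RNAs of the same domain, *Rian* and *Mirg* were higher, whereas *Meg3* did not pass. *Rian* had 643 and 552 in KO against 289 and 141 in WT (log2 difference 1.56 ± 0.39 SE, adjusted p = 0.0294), and *Mirg* had 289 and 249 in KO against 135 and 85 in WT (log2 difference 1.33 ± 0.28 SE, adjusted p = 0.0122). *Cdkn1c*, a maternally expressed growth inhibitor, fell to 981 and 1429 in KO, against 3459 and 2977 in WT (log2 difference -1.44 ± 0.24 SE, adjusted p = 0.00363). The count of 6 paternally expressed genes was 2 without KO replicate 1 and 3 without WT replicate 1. The rise among them was not called without KO replicate 1 or WT replicate 1, and the 2 maternally expressed rises were 0 without KO replicate 1 or WT replicate 2 and 1 without KO replicate 2.

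Several members of the lists lie on chromosome 6 (among them *Mest*, *Sgce*, *Col1a2*, *Fbln2*, *Mgp*, *Nanog*, *Fancd2*, *Igf2bp3*, *Ndufa4* and the Hoxa cluster), and genes of that chromosome read lower in KO as a whole, a pattern noticed after the values were seen. Of its 992 genes 178 (17.9%) were called lower and 53 (5.34%) higher, against 5.76% to 9.65% lower on each other chromosome with at least 100 genes. Among the brighter genes, with a mean over 100 across the 12 arrays, the median log2 difference less that of all genes was -0.23, against -0.03 to 0.09 on the other chromosomes, and it was -0.26, -0.24, -0.26 and -0.22 in the 4 pairs of 1 KO and 1 WT array. At day 8 it was -0.18, and 60 of the 140 genes called lower at that day were on chromosome 6. At day 0 KO replicate 2 (line A49) read -0.11 and -0.13 against the 2 WT lines, and KO replicate 1 (line F35) 0.0 and -0.02. Of the 178 genes called lower, 91 differed by less than 2-fold. Copy number was not tested. The lists differed in how many members lie on this chromosome. It held 9 of 32 Hox, 3 of 12 paternally expressed, 4 of 19 glycolysis and 3 of 13 complement and clotting genes. It also held 3 of 22 connective tissue, 1 of 24 collagen and 0 of 19 macrophage genes. Without chromosome 6, 15 of 23 collagen, 11 of 19 connective tissue, 9 of 23 Hox, 4 of 9 paternally expressed and 16 of 19 macrophage genes were called lower.

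**Figure D4:**
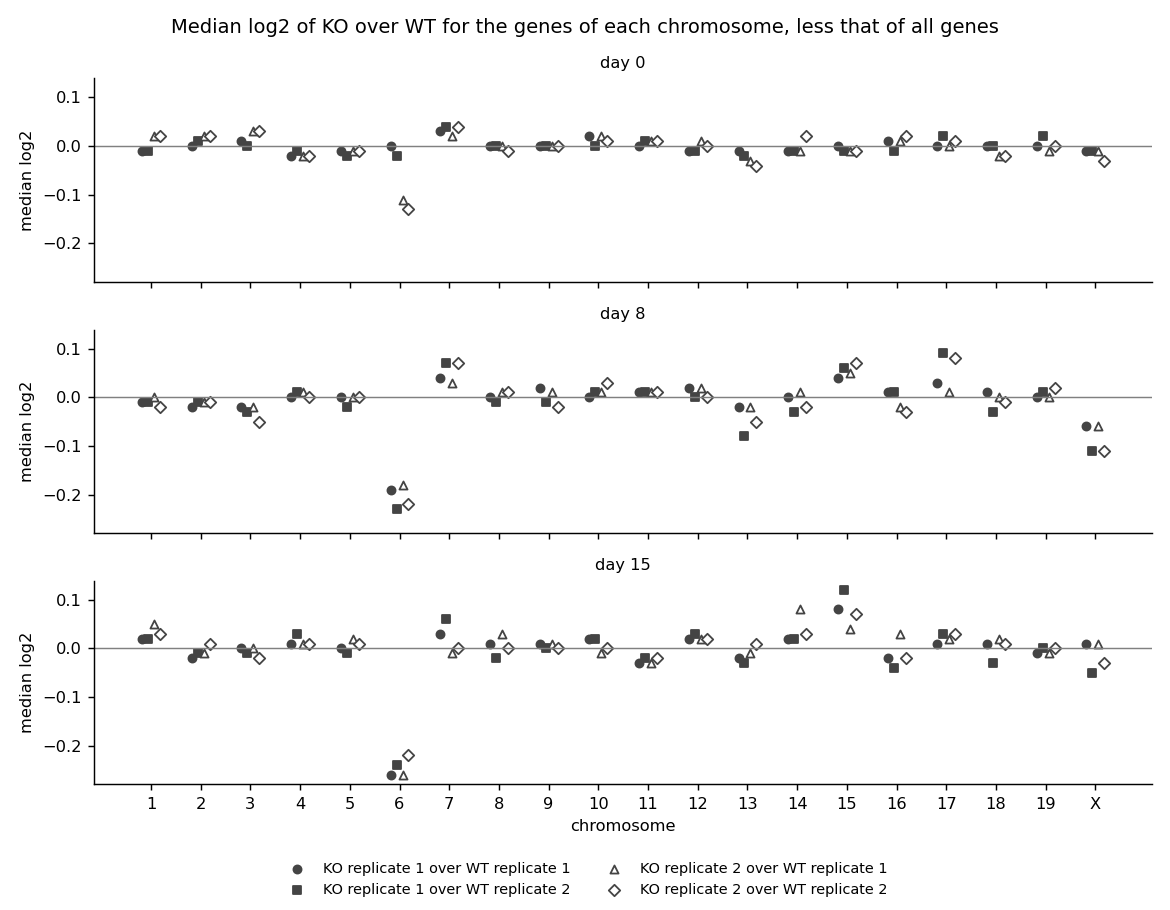
Median log2 of KO over WT for the brighter genes of each chromosome, less the median of all genes, for the 4 pairs of arrays before differentiation and at days 8 and 15. Chromosome 6 lies between -0.26 and -0.22 at day 15 and between -0.23 and -0.18 at day 8, and at day 0 only the pairs with KO replicate 2 lie low, at -0.11 and -0.13.

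Cell cycle genes were close between the genotypes. Of 30, 4 rose and none fell (median log2 difference 0.19). *Mki67*, a proliferation marker, had 1671 and 1753 in KO and 2203 and 2095 in WT (log2 difference -0.33 ± 0.16 SE, adjusted p = 0.218). *Top2a* had 2725 and 2706 in KO and 2717 and 2864 in WT (log2 difference -0.04 ± 0.12 SE, adjusted p = 0.886). *Mybl2*, a cell cycle factor high in ES cells, rose to 550.1 and 501 in KO, against 105 and 282 in WT (log2 difference 1.61 ± 0.35 SE, adjusted p = 0.0175), and *Mcm5*, *Mcm7* and *Cdc20* rose by 0.54, 0.55 and 0.60. The 4 rises were 1 without KO replicate 1, 1 without KO replicate 2 and 2 without WT replicate 1. Targets of p53, the factor that answers DNA damage, were higher: 8 of 15 rose and none fell (median 0.78). *Mdm2*, which degrades p53, had 1970 and 2025 in KO against 729 and 1097 in WT (log2 difference 1.16 ± 0.26 SE, adjusted p = 0.0172). *Trp53inp1* had 6375 and 6519 in KO against 2651 and 3283 in WT (log2 difference 1.13 ± 0.13 SE, adjusted p = 0.000414). *Cdkn1a*, the p21 inhibitor, had 4549 and 5139 in KO and 3144 and 3979 in WT and did not pass (log2 difference 0.45 ± 0.23 SE, adjusted p = 0.258). In 15 of 15 members WT replicate 2 read above WT replicate 1, as did the ES cell genes, and the count was 2 without KO replicate 1, 5 without KO replicate 2 and 2 without WT replicate 1. The 2 groups moved together, and their part in each other's result was not tested. Among 13 cell cycle inhibitor and senescence genes 3 fell, *Igfbp5*, *Cdkn2c* and *Ccl2*, and *Cdkn2a* had 277 and 387 in KO and 129 and 313 in WT (log2 difference 0.71 ± 0.52 SE, adjusted p = 0.457).

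Telomere genes other than *Terc* rose in 7 of 19 cases and fell in 1. The dyskerin complex, which stabilises telomerase RNA and guides other small RNAs, held the largest differences: *Nhp2* had 5073 and 4644 in KO against 1995 and 2545 in WT (log2 difference 1.11 ± 0.13 SE, adjusted p = 0.000425). *Dkc1* had 1993 and 1818 in KO against 843 and 1021 in WT (log2 difference 1.04 ± 0.16 SE, adjusted p = 0.00221), and *Gar1* rose by 0.70, whereas *Nop10* had 6168 and 5692 in KO and 5953 and 5881 in WT. *Tert*, the catalytic subunit, had 103 and 98.3 in KO against 58.1 and 60.6 in WT (log2 difference 0.76 ± 0.18 SE, adjusted p = 0.0203). Of the shelterin proteins that cap telomeres, *Terf1* rose to 169.6 and 162 in KO, against 85.8 and 131 in WT (log2 difference 0.65 ± 0.19 SE, adjusted p = 0.0447), and *Terf2* fell to 416 and 427 in KO, against 578 and 534 in WT (log2 difference -0.40 ± 0.11 SE, adjusted p = 0.041). The count of 7 was 3 without KO replicate 1, 2 without KO replicate 2 and 2 without WT replicate 1, and *Terf2* was not called with any array left out. Of 15 DNA repair genes 4 rose, led by the mismatch protein *Msh6* at 1384 and 1405 in KO against 581 and 834 in WT (log2 difference 1.00 ± 0.15 SE, adjusted p = 0.0017), and 1 was called without KO replicate 1, without KO replicate 2 or without WT replicate 1.

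Metabolic groups gave few calls. No cytosolic ribosomal gene of 12 was called (median log2 difference 0.05), 2 of 22 oxidative phosphorylation genes rose and 2 fell, and glycolysis had 1 of 19 each way. The number of falls in oxidative phosphorylation depended on single arrays. *Ndufa4*, a respiratory chain subunit on chromosome 6, had 4303 and 4252 in KO against 7374 and 6997 in WT (log2 difference -0.75 ± 0.11 SE, adjusted p = 0.00199). Cholesterol synthesis had 1 fall of 16. The single calls of glycolysis and cholesterol synthesis and both rises in oxidative phosphorylation were lost without KO replicate 1 or without KO replicate 2. Of 6 housekeeping genes 2 rose, *Hprt* and *Ywhaz*, and 1 did when any array was left out. *Actb* had 11530 and 12002 in KO and 11758 and 11988 in WT (log2 difference -0.01 ± 0.06 SE, adjusted p = 0.928), and *Hprt* rose to 1372 and 1389 in KO, against 710.5 and 839 in WT (log2 difference 0.84 ± 0.11 SE, adjusted p = 0.00114). *Ywhaz*, a binder of phosphorylated proteins, had 5096 and 4678 in KO against 3965 and 4006 in WT (log2 difference 0.29 ± 0.08 SE, adjusted p = 0.0418). Lysosomal genes fell in 4 of 13 cases, with *Lipa*, the acid lipase, at 299 and 388 in KO against 1391 and 1401 in WT (log2 difference -2.03 ± 0.17 SE, adjusted p = 9.48e-05), a count that was 1 without KO replicate 1, 1 without KO replicate 2 and 2 without WT replicate 1.

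Immune genes outside the macrophage list split. Among 24 interferon and antigen presentation genes 5 fell and 5 rose. *Ifit2*, an interferon-induced RNA-binding protein, fell to 31.6 and 31 in KO, against 92.6 and 96.9 in WT (log2 difference -1.60 ± 0.15 SE, adjusted p = 0.000154), and *B2m*, the light chain of class I molecules, fell to 2117 and 2175 in KO, against 3944 and 4215 in WT (log2 difference -0.93 ± 0.21 SE, adjusted p = 0.0173). The peptide-loading genes *Tap1* and *Tapbp*, the proteasome subunit genes *Psmb8* and *Psmb10* and the factor *Irf1* rose. *Psmb8* rose most, with 187 and 145 in KO against 70.8 and 65.9 in WT (log2 difference 1.27 ± 0.22 SE, adjusted p = 0.00407). The higher count was 1 without KO replicate 1, 3 without KO replicate 2, 2 without WT replicate 1 and 3 without WT replicate 2, and the lower count 1 without KO replicate 1, 2 without KO replicate 2 and 2 without WT replicate 2. Complement and clotting genes fell in 5 of 13 cases and rose in 1, a rise that depended on single arrays. The largest fall was that of *F13a1*, a clotting factor chain of macrophages and platelets, at 20.2 and 17.7 in KO against 978 and 104 in WT (log2 difference -4.08 ± 0.78 SE, adjusted p = 0.0106). The count of 5 was 1 without KO replicate 1 and 2 without KO replicate 2. For *F13a1* WT replicate 1 was far above WT replicate 2.

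Among called genes in no list, the largest rises were those of *Pim2*, a survival kinase, *Nptx2*, a synaptic pentraxin, and *Trh*, the thyrotropin-releasing hormone precursor. *Pim2* had 1717 and 1209 in KO against 138 and 148 in WT (log2 difference 3.33 ± 0.39 SE, adjusted p = 0.000958). *Nptx2* had 438 and 479 in KO against 39.8 and 63 in WT (log2 difference 3.19 ± 0.29 SE, adjusted p = 0.000215). *Trh* had 728 and 651 in KO against 70.4 and 84.1 in WT (log2 difference 3.16 ± 0.35 SE, adjusted p = 0.000702). The largest falls were those of *Epha3*, an ephrin receptor, *Bnc1*, a zinc finger factor, and *Lyz1*, a lysozyme. *Epha3* had 21.2 and 70.5 in KO against 998 and 419 in WT (log2 difference -4.06 ± 0.71 SE, adjusted p = 0.00683). *Bnc1* had 59 and 86.3 in KO against 1597 and 716 in WT (log2 difference -3.91 ± 0.70 SE, adjusted p = 0.00765). *Lyz1* had 22.1 and 37.4 in KO against 599.8 and 267 in WT (log2 difference -3.80 ± 0.52 SE, adjusted p = 0.00232). The *Lyz1* and *Lyz2* sequences are alike, so the signal of one probe set may include the other gene. *Bnc1* is known from basal cells of the epidermis as well as from mesothelium and germ cells. Low in KO too were 2 further genes of mesothelium, chosen after their values were seen. *Upk3b* had 38.1 and 37.8 in KO against 619 and 261 in WT (log2 difference -3.41 ± 0.45 SE, adjusted p = 0.00182). *Wt1*, a member of the kidney list, had 43.5 and 64.4 in KO against 355 and 138 in WT (log2 difference -2.06 ± 0.41 SE, adjusted p = 0.0106).

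Fewer genes were called at day 8 than at day 15. At day 8, 508 probe sets (1.13%) were called, 231 (0.513%) higher and 277 (0.615%) lower. This count depended on single arrays: it was 10 without KO replicate 1 of that day, 5 without KO replicate 2, 2625 without WT replicate 1 and 359 without WT replicate 2, which also limits each statement above that a gene was or was not called at day 8. By gene 280 (1.54%) were called, 140 (0.77%) higher and 140 (0.77%) lower, and 221 of these genes were called in the same direction at day 15 and 2 in the opposite one. The change of the difference itself passed for 190 probe sets (0.422%), 62 (0.138%) toward higher and 128 (0.284%) toward lower KO levels. By gene it passed for 120 (0.66%), 41 (0.225%) toward higher and 79 (0.434%) toward lower. The upward shifts with the largest sizes belonged to genes whose WT arrays read many-fold lower at day 15 than at day 8, while the KO arrays changed less. *Tdgf1*, the Nodal co-receptor Cripto, had 3789 and 3276 in KO and 3657 and 2125 in WT at day 8, and 3438 and 2678 in KO against 97.1 and 266 in WT at day 15 (shift 3.90 ± 0.58 SE, adjusted p = 0.0328). *Olig1* had 445 and 468 in KO and 347 and 176 in WT at day 8 (shift 3.04 ± 0.49 SE, adjusted p = 0.0379), and *Eomes* had 1736 and 1539 in KO and 2902 and 1183 in WT at day 8 and 848 and 609 in KO against 89.2 and 118 in WT at day 15 (shift 2.99 ± 0.51 SE, adjusted p = 0.0465). *Dnmt3b*, a DNA methyltransferase of the early embryo, and *Cth*, an enzyme of cysteine synthesis, shifted by 2.27 and 2.22. Among the downward shifts were genes whose WT arrays were bright at day 15 and dim at day 8: *Tyrobp*, *Mrc1*, *Fmod* and *Krt15*. The number of shifts passing the test depended on single arrays, with 14 without KO replicate 1 of day 15, 42 without KO replicate 2 of day 15, 1112 without WT replicate 2 of day 15, 29 and 44 without KO replicate 1 and 2 of day 8 and 1730 without WT replicate 2 of day 8.

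**Figure D5:**
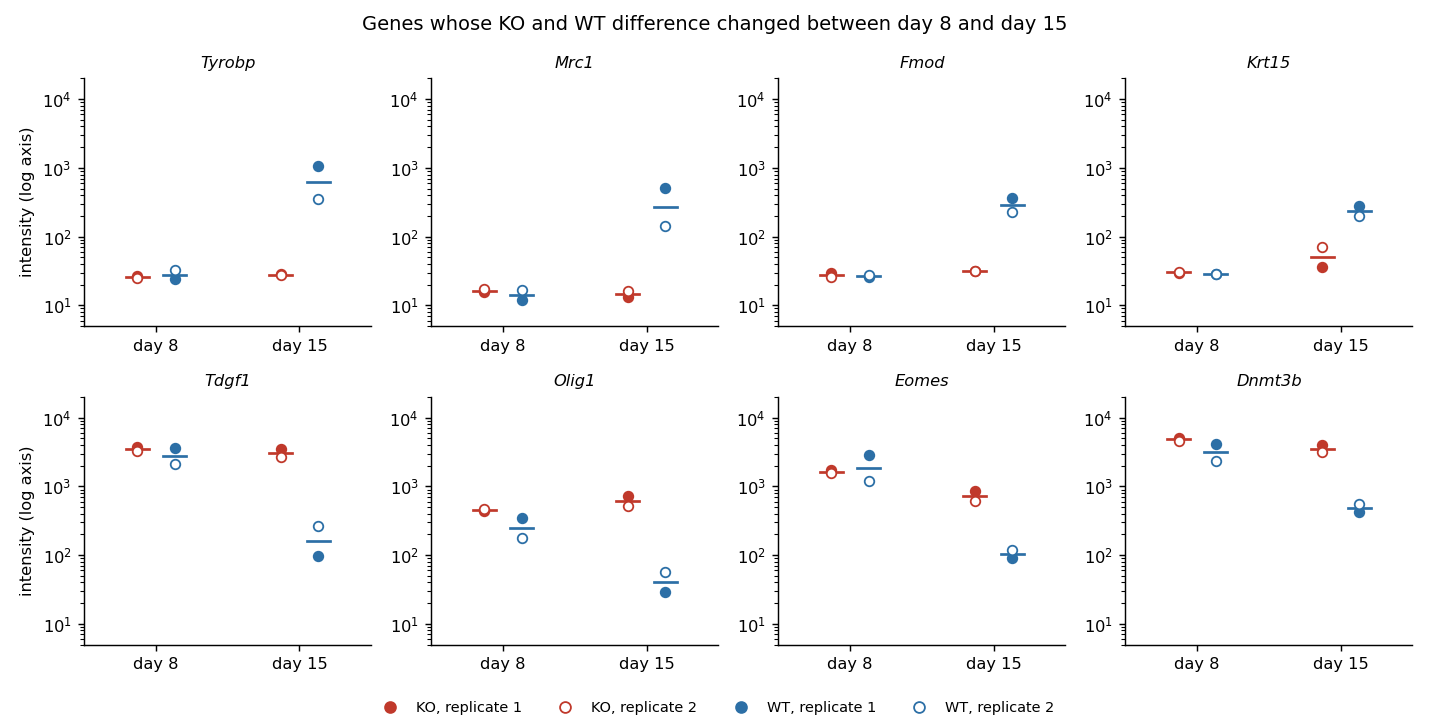
Intensity (log axis) of 8 genes in KO (red) and WT (blue) at day 8 and day 15, with a point for each array and a line at the mean of the log2 values. *Tyrobp*, *Mrc1*, *Fmod* and *Krt15* became bright only in WT (*Tyrobp* 1082 and 354 in WT at day 15), and *Tdgf1*, *Olig1* and *Dnmt3b* stayed bright in KO and were lower in WT at day 15, while *Eomes* was lower at day 15 than at day 8 in both genotypes, more so in WT (*Tdgf1* 3438 and 2678 in KO against 97.1 and 266 in WT).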

How the data were processed

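RNA of 12 samples had been hybridised to Affymetrix mouse expression arrays, 1 sample an array. The values used here are intensities on a linear scale as the authors deposited them, 1 per probe set, for which the submitters' processing notes name MAS5 (version not given in the sources used here) and the methods name the software of the array company. Scanner files, detection calls and background values were not analysed here, and the day 0 arrays are on another scale than the rest, with medians of 113.6 to 117.0 against 50.6 to 53.1, so levels were compared within a day. After 64 control probe sets were left out, values under 1 were set to 1 and log2 was taken. Probe sets were named through the platform annotation: 34945 had 1 gene symbol, 932 several and 9160 none, and a gene was represented by its brightest single-symbol probe set, which can hide a difference between isoforms.

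limma 3.58.1 (R 4.3.3, statmod 1.5.0) was fitted to all 12 arrays with a mean for each of 6 groups, variance trend and robust moderation. The contrasts were KO minus WT at day 15, the same at day 8, and the first minus the second, and p-values were adjusted over 45037 probe sets by the Benjamini-Hochberg method with a threshold of 0.05. Every adjusted p in the text comes from this fit, and log2 differences are KO minus WT. Simulated arrays with known changes were used to check it. The number of arrays, 2 a group, limits the precision. Further steps used numpy 2.4.6, pandas 2.3.3, matplotlib 3.10.9 and Python 3.11.15. Alternatives were an added offset of 32, quantile scaling, median centring, testing only probe sets above the median brightness, no moderation by trend, the replicate number as a block, fits to 8 or 4 arrays, averaging probe sets of a gene, the methods' 2-group test and leaving out each array.

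The members and the 48 lists (871 genes, 801 measured) were chosen with earlier results of these data known. Named genes were, in each direction, up to 12 with the largest day 15 difference and up to 6 with the largest day shift, if called, not overlapping and over 100 in the higher group, up to 5 called and 3 bright members of each list that did not pass, and up to 3 called genes in no list. Not every gene this rule selects is printed, and other genes are mentioned as list members or, where so stated, chosen after their values were seen. Chromosomes came from the RefSeq table of GRCm38.p6.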

Additional observations from a re-analysis of the deposited data

Results flagged for a closer look

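For the 28 genes given here, all of them list members except *Cth*, the genotype difference at day 15 was not the same as at day 8, by a test of the change itself in limma. The values are the log2 difference of KO minus WT at day 15 less that at day 8, so a negative value means that KO moved lower relative to WT.

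Most of the shifts were toward lower KO levels. Among macrophage genes they were -4.40 for *C1qc*, -4.37 for *Mrc1*, -4.36 for *Tyrobp*, -3.35 for *Ctss*, -2.69 for *Fcgr3* and -2.55 for *C1qa*. Among matrix and cartilage genes they were -3.27 for *Fmod*, -2.84 for *Col6a2*, -1.62 for *Col9a2* and -0.99 for *Eln*. Keratin genes and a differentiation-associated epidermal gene shifted by -2.29 (*Krt15*), -1.58 (*Krt5*), -1.17 (*Krt4*) and -1.54 (*Krtdap*). *Fabp4*, a fatty acid carrier of adipocytes, macrophages and vessels, shifted by -3.56, *Lyve1* by -1.43 and *Serping1*, the C1 inhibitor, by -1.81. The secreted Wnt inhibitors *Sfrp1* and *Sfrp2* shifted by -2.09 and -2.29, *Aldh1a2* by -1.48 and *Elf5*, a trophoblast factor, by -1.36.

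Toward higher KO levels the shifts were 3.90 for *Tdgf1*, 3.04 for *Olig1*, 2.99 for *Eomes*, 2.41 for *Eras*, a Ras-like gene of ES cells, 2.27 for *Dnmt3b* and 1.61 for *Sfn*. *Cth* shifted by 2.22 and was named by the rule for day shifts.

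The WT arrays of day 8 stood apart from each other, with 1023 probe sets differing by more than 1 on the log2 scale, against 66 between the KO arrays of that day. Their part in these shifts was not tested beyond leaving out each array.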

How the results depend on the processing

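The count of 5807 probe sets called at day 15 was 3781 with the 8 arrays of days 8 and 15 (1810 higher, against 2904) and 3153 when probe sets of a gene were averaged, where fewer units are tested (1606 higher and 1547 lower, against 2903). The methods' 2-group test called 6541 at unadjusted p and 0 after Benjamini-Hochberg adjustment. Without single arrays it ranged from 1720 to 5831 (838 to 2979 higher and 882 to 2852 lower). The 190 shifts between days were 124 with quantile scaling, 89 above the median brightness and 29 with 8 arrays, and 14 to 1730 without single arrays. Toward higher KO levels, 62 became 33 with the offset, 29 with quantile scaling, 36 above the median brightness, 38 without trend and robust moderation, 3 with 8 arrays and 1 to 1026 without single arrays. Toward lower levels, 128 became 53, 26 and 13 to 704 for probe sets above the median brightness, 8 arrays and single arrays left out. The share toward higher was 32.6% as deposited, 20.9% with the offset and 23.4% with quantile scaling. At 1.8-fold, 2829 became 1626 with an offset of 32 (520 higher, against 1033, and 1106 lower, against 1796), 684 were higher at 2-fold, and without single arrays 2508 to 3689 passed (902 to 1592 higher, 1606 to 2210 lower). The cause of these moves was not tested.

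Same-numbered arrays did not deviate together (r = 0.0111, 0.0442 and -0.0611 at days 0, 8 and 15), so the number gives no pairing. With the replicate number as a block, 4752 probe sets were called at day 15 and 76 shifts passed (14 higher, 62 lower). Of 199 called named genes, 185 were called with the block, 154 with 8 arrays, 152 with 4 arrays, 186 with the offset, 193 with quantile scaling, 195 with median centring and 191 without trend and robust moderation. None reversed, but of these settings only quantile scaling and median centring could have changed the direction of a called gene. Without detection calls, dim genes cannot be told from background.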

Other observations

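Of 9 genes of the Y chromosome, looked at after their values were seen, 3 were called higher in KO at day 15 and none lower. *Kdm5d* had 142 and 146 in KO against 55.4 and 51.6 in WT (log2 difference 1.43 ± 0.29 SE, adjusted p = 0.0106), *Uty* had 95.7 and 79.5 in KO against 58.7 and 48.4 in WT (log2 difference 0.71 ± 0.19 SE, adjusted p = 0.0311), and *Eif2s3y* had 337 and 341 in KO against 199 and 208 in WT (log2 difference 0.74 ± 0.14 SE, adjusted p = 0.00554). Both genotypes gave signal for these genes, and the labels do not give the sex of the lines.

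The following genes were also chosen after their values were seen, so they add no support to the lists. *Wnt2*, a ligand made by mesothelium and by heart and vessel mesoderm, had 38.3 and 43.9 in KO against 489 and 241 in WT (log2 difference -3.07 ± 0.31 SE, adjusted p = 0.000346). *Angpt1*, the ligand of the receptor encoded by *Tek*, had 41.8 and 67 in KO against 514 and 210.2 in WT (log2 difference -2.63 ± 0.59 SE, adjusted p = 0.0209), and *Mpeg1*, a pore-forming protein of macrophages, was 5.75-fold lower in KO (log2 difference -2.52 ± 0.32 SE, adjusted p = 0.00107). *Nr0b1*, a nuclear receptor of ES cells, had 117 and 97.4 in KO against 12.1 and 30.7 in WT (log2 difference 2.47 ± 0.34 SE, adjusted p = 0.00181), and *Slc7a3*, a transporter of cationic amino acids, had 1119 and 885 in KO against 99.2 and 160.5 in WT (log2 difference 2.98 ± 0.30 SE, adjusted p = 0.000416).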
